A study of Mus musculus with 2 samples.

Results

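The anti-Rtl1 miRNAs are 6 miRNA genes, Mir431, Mir433, Mir127, Mir434, Mir432 and Mir136, that lie on the plus strand of mouse chromosome 12 opposite the gene Rtl1. They were selected by gene symbol in the GENCODE M21 annotation, a rule that uses no count, and are 6 of the 2202 miRNA genes in the deposited tables. The tables come from microRNA sequencing of a calf muscle, the gastrocnemius, taken at 10 days of age from 2 females of B6CASTF1/J, a hybrid of C57BL/6 and CAST mice. Total RNA was used and RNA under 30 bases was selected. Both animals carry the same genotype and no treatment is given in the labels, so there is a single group, with no contrast between conditions. The labels number the libraries as biological replicates 1 and 2 and the females separately, but give both the same donor entry. Alleles of the hybrid were not counted apart.

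Rtl1 is a gene derived from a retrotransposon and is expressed from the paternal chromosome within the imprinted Dlk1-Dio3 region. The miRNAs opposite it are cut from a maternally expressed transcript, often called anti-Rtl1. Because both transcripts copy the same DNA, the miRNAs are fully complementary to the Rtl1 mRNA, and in mice they direct its cleavage. Rtl1 is known from the capillaries of the mouse placenta and from muscle, and in sheep its overexpression accompanies the muscular callipyge trait.

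The annotation placed every one of the 6 genes inside the coding sequence of Rtl1, on its opposite strand. Rtl1 (ENSMUSG00000085925.3, build mm10, chr12:109589193-109600330, minus strand) has 2 exons, and its coding sequence of 5232 bases lies in exon 2. The 6 hairpins spread over 4942 bases of that exon. Along the plus strand they come in the order Mir431 (ENSMUSG00000070080.1, chr12:109590447-109590537), Mir433 (ENSMUSG00000070072.1, chr12:109591715-109591838), Mir127 (ENSMUSG00000070076.2, chr12:109592846-109592915), Mir434 (ENSMUSG00000070133.1, chr12:109594506-109594599), Mir432 (ENSMUSG00000087855.1, chr12:109594956-109595030) and Mir136 (ENSMUSG00000104858.1, chr12:109595327-109595388). Gaps between neighbours ran from 296 bases, between Mir432 and Mir136, to 1590 bases, between Mir127 and Mir434. The annotation holds 0 genes on the plus strand that contain any of the 6, and no other plus-strand miRNA gene lies between Mir431 and Mir136. Read along the Rtl1 mRNA the order is turned round. Mir136 lies opposite coding bases 16 to 77, next to the start codon, and Mir431 opposite bases 4867 to 4957.

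The mature miRNAs are shown because their seeds decide which other transcripts they could recognise, while their full length decides the match to Rtl1. The 11 annotated mature sequences come from RefSeq (GRCm38.p6), 5′ to 3′, with the seed, bases 2 to 8, in capitals.
miR-431-5p: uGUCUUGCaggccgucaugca
miR-431-3p: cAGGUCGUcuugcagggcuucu
miR-433-5p: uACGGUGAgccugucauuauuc
miR-433-3p: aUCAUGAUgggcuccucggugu
miR-127-5p: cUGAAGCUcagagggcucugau
miR-127-3p: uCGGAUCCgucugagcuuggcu
miR-434-5p: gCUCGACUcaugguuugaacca
miR-434-3p: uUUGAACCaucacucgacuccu
miR-432: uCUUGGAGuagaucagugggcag
miR-136-5p: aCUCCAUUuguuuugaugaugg
miR-136-3p: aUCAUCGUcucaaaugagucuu

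No seed is shared among these 11 sequences or with any other mouse mature miRNA in the RefSeq table. A seed of its own is common there, held by 72.1% of 1679 mature miRNAs. The 6 genes are therefore neighbours by position and not a seed family. The longest stretch common to mature sequences of different hairpins is 7 bases, between miR-433-3p and miR-136-5p. The arms of Mir431 share 10 bases and the arms of Mir434 share 9 bases.

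All 11 sequences had a full-length complement in the annotated Rtl1 mRNA. The sites of the arms of Mir127 and Mir136 and of miR-432 are printed here in mRNA sense, 5′ to 3′, with the bases that pair with the seed in capitals, because these 3 hairpins hold the most, the fewest and none of the reads described next.
site of miR-136-3p: aagacucauuugagACGAUGAu
site of miR-136-5p: ccaucaucaaaacaAAUGGAGu
site of miR-432: cugcccacugaucuaCUCCAAGa
site of miR-127-3p: agccaagcucagacGGAUCCGa
site of miR-127-5p: aucagagcccucugAGCUUCAg
They occupy coding bases 17 to 38, 52 to 73, 376 to 398, 2495 to 2516 and 2529 to 2550 of Rtl1, in that order. Among all annotated transcripts, the mature sequences themselves occurred in no gene but their own. The full complement occurred outside Rtl1 only for both arms of Mir136, in Mir3071, a miRNA gene on the opposite strand of the same site. Whether Rtl1 mRNA was present or cleaved was not measured in these libraries.

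The hairpins differ in predicted stability. The RNAfold energy per base was lowest, that is most stable, for Mir127 at -0.50 kcal/mol and highest for Mir432 at -0.32 kcal/mol. Mir431 (-0.48), Mir136 (-0.45), Mir434 (-0.40) and Mir433 (-0.36) lay between them, against a median of -0.37 kcal/mol over all 2202 precursors. The hairpins of Mir127 and Mir432 read as follows, with the annotated mature arms in capitals.
Mir127: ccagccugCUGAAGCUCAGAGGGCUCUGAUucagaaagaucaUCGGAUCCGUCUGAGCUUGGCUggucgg
Mir432: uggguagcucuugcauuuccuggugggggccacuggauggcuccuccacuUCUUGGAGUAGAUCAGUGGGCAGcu
RefSeq gives a single mature arm for Mir432 and both arms for the other 5 genes. GC content ran from 40.3% in Mir136 to 60.4% in Mir431, against a median of 50.8% over all precursors.

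The depth was 3510897 (replicate 1) and 3949733 (replicate 2) sense reads over all miRNA genes. Levels are CPM, reads per 1000000 of these. They are not divided by gene length, since a read is one mature miRNA. The 5p and 3p arms of a hairpin are pooled in its count. Multiply aligned reads, 42.6% of replicate 1 and 46.4% of replicate 2, are assigned to no gene. None of the 6 hairpins shares a stretch of 18 bases with an annotated precursor elsewhere, whereas 25.3% of the 332 miRNA genes detected at 2 CPM in both libraries do. With 0 reads, the upper limit (3 counts) is 0.854 CPM for replicate 1 and 0.760 CPM for replicate 2. These limits and all intervals cover counting error only, since no molecular identifiers are given. The muscle miRNA Mir206 was the most abundant gene, with 115948 and 95264 CPM in replicates 1 and 2. The rest of the muscle list was far lower in these libraries. Mir499 had 336 and 344 CPM, Mir208b 82.6 and 120 CPM, Mir1a-2 67.5 and 87.3 CPM, and Mir133b 27.3 and 34.2 CPM. Multiply aligned reads are left out, so a low value does not show absence for a gene that loses such reads. Which genes of this list lose them is not shown here. Markers of endothelium (Mir126a, 42036 and 46314 CPM), stroma (Mir143, 22806 and 29190 CPM) and red cells (Mir451a, 1911 and 1712 CPM) were also present. The other stroma gene listed, Mir145a, had 675 and 702 CPM, and the other red cell gene, Mir144, had 155 and 154 CPM. The liver gene listed, Mir122, had 491 CPM in replicate 1 and 176 CPM in replicate 2, and its source was not tested. Of the neural list, Mir338 had 243 and 367 CPM, Mir9-1 had 1 and 2 reads, Mir9-3 had 0 and 7 reads, and Mir9-2 and the 3 Mir124a genes had 0 reads in both. Copies of Mir9 and Mir124a give the same mature miRNA, and multiply aligned reads are not counted, so these low counts do not show that the miRNAs were absent. The tissue is thus a mixture, and the cells that hold the members were not resolved.

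Together the 6 genes held 11.98% of the counted reads in replicate 1 (exact 95% interval 11.94% to 12.01%) and 11.7% in replicate 2 (11.7% to 11.7%), a mean of 11.8% ± 0.187 (SD, n = 2 animals). Without Mir127, the others held 3.802% and 3.393% in replicates 1 and 2. Of the 6 genes, 5 had reads and were detected in both animals, and Mir432 had 0 reads in either. Over all 2202 miRNA genes, 332 (15.1%) were detected at 2 CPM in both libraries.

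Mir127, which in mice represses Rtl1 in the placenta, had 287063 reads in replicate 1 and 328685 in replicate 2. This was 81763 and 83217 CPM, a mean of 82490 ± 1028 CPM (SD, n = 2). Among all miRNA genes Mir127 ranked 2 in replicate 1, 3 in replicate 2 and 3 by mean level. Ranks here and below leave out multiply aligned reads, so genes that lose such reads may stand too low beside the members. Its share of all counted reads was 8.18% in replicate 1 (exact 95% interval 8.15% to 8.21%) and 8.32% in replicate 2 (8.29% to 8.35%). Within the 6 genes it took 68.3% and 71.0% of the reads, so a single hairpin supplied most of the counted anti-Rtl1 reads in both animals.

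Mir431, which in mice targets the satellite cell gene Pax7, had 73515 and 74160 reads in replicates 1 and 2. Its level was 20939 and 18776 CPM, a mean of 19858 ± 1530 CPM, and its rank was 15. It took 17.5% and 16.0% of the reads of the 6 genes, the next share after that of Mir127.

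Mir434 had 38246 and 37584 reads in replicates 1 and 2, or 10894 and 9516 CPM, with a mean of 10204.5 ± 974 CPM and rank 22. Mir433 had 20598 and 20939 reads, or 5867 and 5301 CPM, with a mean of 5584 ± 399.9 CPM and rank 32. These 2 genes lie on either side of Mir127 along the strand and held 9.09% and 8.12% (Mir434) and 4.90% and 4.53% (Mir433) of the reads of the 6 in replicates 1 and 2.

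Mir136, the gene nearest the Rtl1 start codon, stood far below the other 4 genes with reads. It had 1137 reads in replicate 1 and 1333 in replicate 2, or 324 and 337 CPM (mean 331 ± 9.65 CPM, rank 131). Its share within the 6 genes was 0.270% in replicate 1 (exact 95% interval 0.255% to 0.287%) and 0.288% in replicate 2 (0.273% to 0.304%).

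Mir432 had no sense, antisense or unstranded read in either library. Its neighbours Mir434, 356 bases away on one side, and Mir136, 296 bases away on the other, both had reads. Set against the limit of 3 counts per library for Mir432, the observed count of Mir136 was 379-fold higher in replicate 1 and 444-fold higher in replicate 2. For Mir127 these ratios to the limit were 95688-fold and 109562-fold. They leave out the counting error of Mir136 and Mir127 themselves. A count of 0 is common in the annotation, with 1511 of the 2202 miRNA genes (68.6%) at 0 in both libraries. The ratios to the limit hold for reads placed at a single site, and the genome outside annotated transcripts was not searched for copies.

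**Figure D1:**
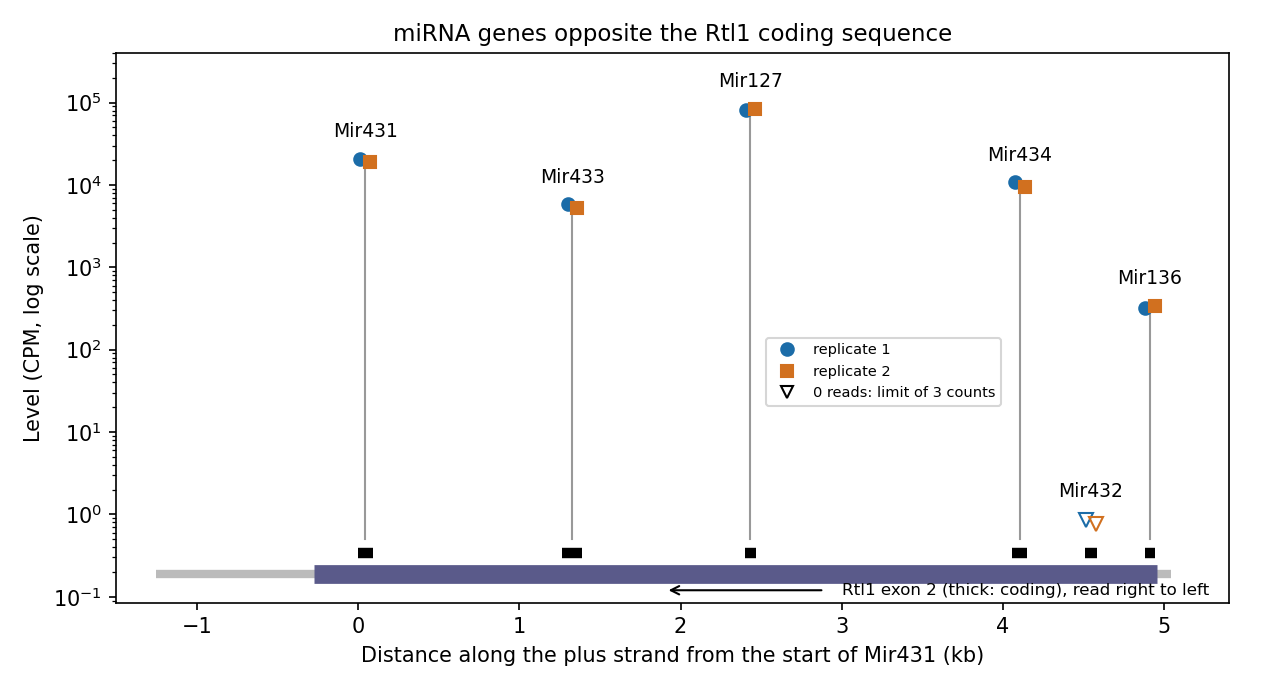
Level of each gene (CPM, log scale) against its distance in kb along the plus strand from the start of Mir431, above the position of each hairpin (black) and Rtl1 exon 2 (thick, coding part). Circles are replicate 1 and squares replicate 2, open triangles mark the limit of 3 counts for Mir432, and levels neither rise nor fall steadily along the strand.

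The order of the 5 genes with reads was the same in both animals: Mir127, Mir431, Mir434, Mir433, Mir136. For each pair of neighbours in this order, the values of the 2 animals did not overlap. Mir127 exceeded Mir431 by 3.90-fold in replicate 1 (exact 95% interval 3.87 to 3.94) and 4.43-fold in replicate 2 (4.397 to 4.468). Mir431 exceeded Mir434 by 1.92-fold and 1.97-fold, and Mir434 exceeded Mir433 by 1.86-fold and 1.79-fold. The widest step was from Mir433 to Mir136, with Mir433 higher by 18.1-fold in replicate 1 (17.1 to 19.2) and 15.7-fold in replicate 2 (14.9 to 16.6). From Mir127 to Mir136 the ratio was 252-fold and 247-fold. With 2 animals an exact permutation test of 2 values against 2 cannot go below p = 0.33, so the order rests on the values themselves. The order and the ratios are of reads. How evenly the different mature sequences were turned into reads was not tested, and both libraries could share any such unevenness. The level did not follow position: along the strand, Mir431 was followed by the lower Mir433, then the higher Mir127, then the lower Mir434, Mir432 at 0 and Mir136 far below the rest.

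**Figure D2:**
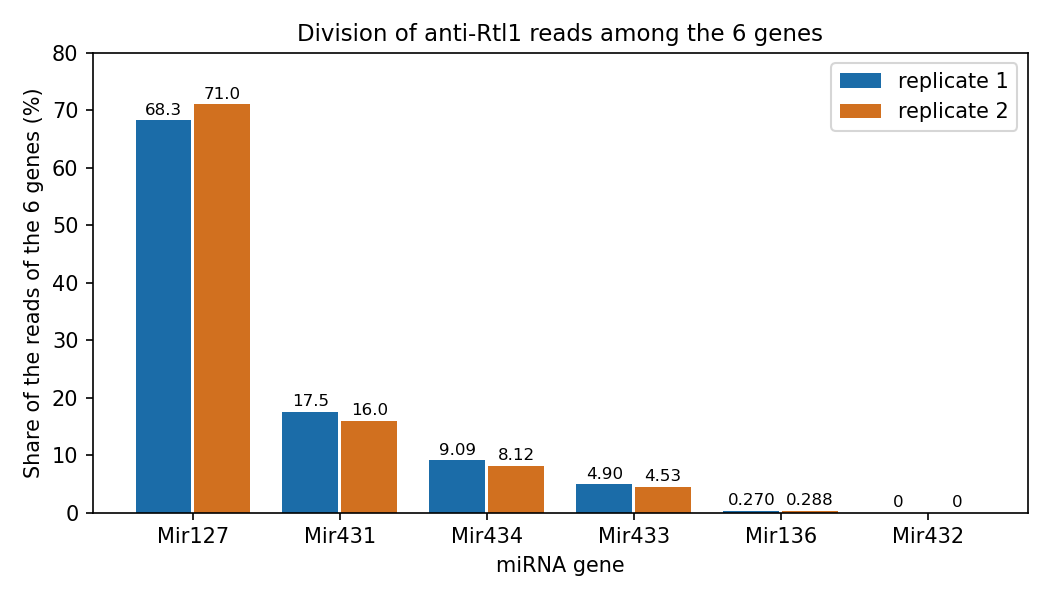
Share of the reads of the 6 genes (%) held by each gene, with replicate 1 left and replicate 2 right for each. Mir127 held 68.3% and 71.0%, and Mir136 and Mir432 are too low to see as bars.

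The genes next in level to the members came from inside and outside the Dlk1-Dio3 region. Next above Mir127 in mean level came Mir378a, known from an intron of a coactivator gene of mitochondrial function, with 77380 and 94360 CPM in replicates 1 and 2, a range that included both values of Mir127. Next below it came Mir411 of the distal Dlk1-Dio3 cluster, with 60037 and 62145 CPM, which did not overlap. Mir431 fell between Mir335 (20096 and 23788 CPM) and Mirlet7d (17799 and 16290 CPM), and overlapped only Mir335. Mir434 fell between Mir139 (10294 and 11083 CPM), which it overlapped, and Mir30d (7657 and 8650 CPM), which it did not. The neighbours of Mir433 were Mir337 (5628 and 5712 CPM) and Mir540 (5923 and 4975 CPM), both from the Meg3 side of the same region, and neither could be separated from it by the spread of the animals. Mir136 likewise overlapped the liver miRNA Mir122 (491 and 176 CPM) above it and the distal Dlk1-Dio3 gene Mir323 (310 and 326 CPM) below it. Likeness of pattern across samples was not computed, since 2 animals of a single condition give no pattern.

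Within the Dlk1-Dio3 region the anti-Rtl1 genes were few but held many reads. They are 6 of 58 plus-strand miRNA genes from Mir770 to Mir3072 and took 39.2% and 40.1% of the reads of these genes in replicates 1 and 2. The 39 genes of the distal cluster from Mir379 to Mir3072 together held 16.2% and 15.5% of all counted reads, with Mir411 the highest. The 8 genes on the Meg3 side, upstream of Mir431, held 2.01% and 1.72%, with Mir337 the highest. The 5 genes between Mir136 and Mir379 held 0.376% and 0.361%, with Mir341 the highest (2755 and 2854 CPM). The median level over every annotated gene of a group was 7894 CPM for the 6 anti-Rtl1 genes, 1307 CPM for the Meg3 side, 28.3 CPM between Mir136 and Mir379, and 937.5 CPM for the distal cluster. Genes detected at 2 CPM in both libraries were 5 of the 6 anti-Rtl1 genes and 7 of 8 on the Meg3 side. They were 3 of 5 between Mir136 and Mir379 and 36 of 39 in the distal cluster. The differences between these groups were not tested.

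**Figure D3:**
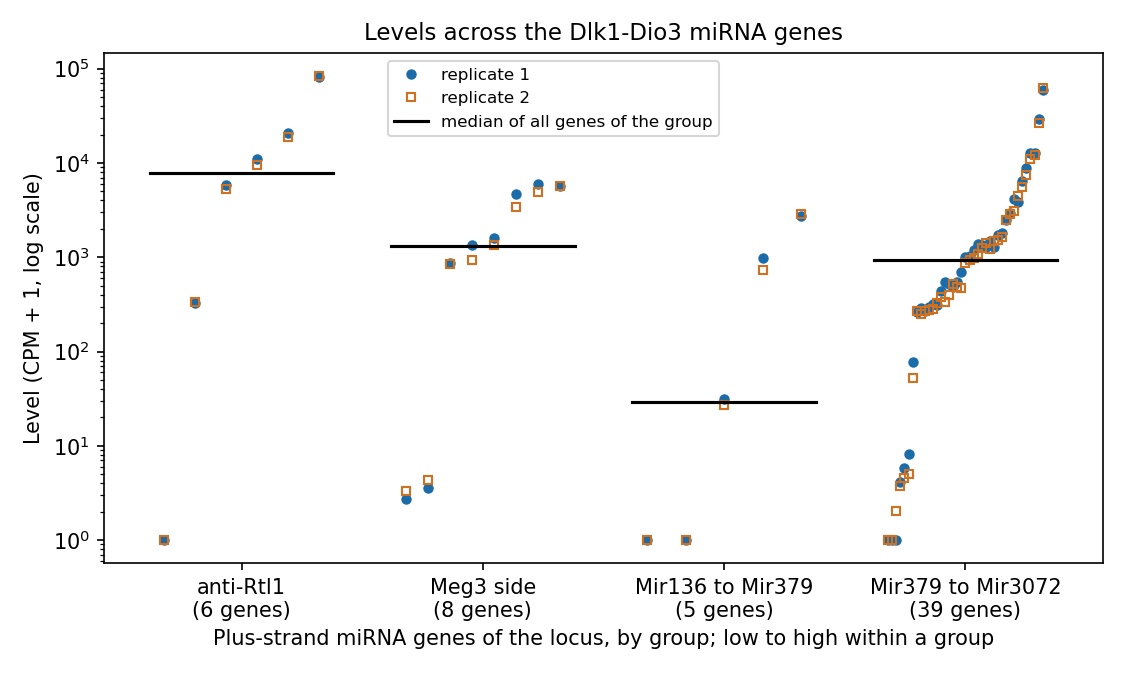
Levels (CPM + 1, log scale) of the plus-strand miRNA genes of the region in 4 groups by position, with genes ordered low to high within a group. Filled circles are replicate 1, open squares replicate 2 and bars the median of all genes of the group, highest for the anti-Rtl1 genes at 7894 CPM before 1 was added.

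Of the 6 genes, only Mir136 has a miRNA gene on the opposite strand. Mir3071 (ENSMUSG00000070129.2, chr12:109595318-109595397, minus strand) covers the whole Mir136 hairpin, and its mature sequences are printed beside those of Mir136, with seeds in capitals, because the arms pair with each other.
miR-136-5p: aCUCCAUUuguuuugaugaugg
miR-3071-3p: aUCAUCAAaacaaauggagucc
miR-136-3p: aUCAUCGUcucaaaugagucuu
miR-3071-5p: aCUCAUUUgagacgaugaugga
The first pair is complementary over 20 bases and the last pair over 19 bases. Reads on the minus strand at this site, counted as Mir3071, numbered 31 in replicate 1 and 21 in replicate 2, or 8.83 and 5.32 CPM. They were 2.65% (exact 95% interval 1.81% to 3.75%) and 1.55% (0.963% to 2.36%) of the reads of both strands at the site. At the other 4 genes with reads, antisense reads numbered 3 and 7 in replicates 1 and 2, or 0.000715% (0.000148% to 0.00209%) and 0.00152% (0.000610% to 0.00313%). The minus-strand share at Mir136 thus lay above the antisense share at its neighbours in both libraries, beyond counting error. Sense reads, which enter the share, were far fewer at Mir136 than at each of those genes. Minus-strand reads were not particular to Mir136 in the region. Mir3544, also on the minus strand, had 145 and 112 reads in replicates 1 and 2, opposite 19761 and 22559 reads of Mir337. Since Mir3071 lies on the strand of Rtl1, its reads cannot be told apart here from pieces of the Rtl1 transcript. When strand was ignored, all reads of Mir136 became ambiguous and its count was 0 in both libraries.

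The 2 animals differed little in these miRNAs. The coefficient of variation between them was 1.25% for Mir127, 2.92% for Mir136, 7.16% for Mir433, 7.70% for Mir431 and 9.55% for Mir434. The median over all 332 detected genes was 10.2%, and edgeR's common biological coefficient of variation over 320 genes was 0.188. Beside genes within 4-fold of it in level, Mir127 varied little, with 3 of 13 such genes varying less, and so did Mir136, with 30 of 113. The other members lay nearer the middle, with 18 of 30 genes varying less than Mir431, 28 of 45 less than Mir434 and 30 of 54 less than Mir433. Each of these members varied more than the median of its genes of like level. That median was 6.46% for Mir431, 6.65% for Mir434 and 6.46% for Mir433.

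Differences between the libraries were nonetheless larger than counting noise for 4 of the 5 genes with reads. They are given as replicate 1 over replicate 2 and tested with a two-sided exact binomial test, adjusted by the Benjamini-Hochberg method over 395 genes. This test compares these 2 libraries and not conditions. In a whole tissue, fewer cells of a type and less RNA per cell cannot be told apart. Mir434 was 1.14-fold higher in replicate 1 (95% interval 1.13 to 1.16, exact adjusted p = 4.88e-76). Mir431 was 1.12-fold higher (1.10 to 1.13, exact adjusted p = 5.41e-96). Mir433 was 1.11-fold higher (1.09 to 1.13, exact adjusted p = 5.17e-24). Mir127 had a ratio of 0.983 (0.978 to 0.987, exact adjusted p = 3.45e-11), so it was lower in replicate 1, but with all reads of the file as the total its log2 ratio was 0.12, the opposite direction. That total moved the median log2 ratio of all genes tested to 0.18, beside 0.03. The ratio of Mir136 was 0.960 (0.886 to 1.04, exact adjusted p = 0.457), which did not pass.

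These calls have to be read against the depth. Over all 395 genes tested, 41.3% passed the same test, 24.3% higher and 17.0% lower in replicate 1, against 3 higher and 1 lower of the 5 anti-Rtl1 genes. Of all 163 genes called, 58.9% were higher in replicate 1, a share of 82.0% with all reads of the file as the total and of 46.7% with DESeq2 size factors. Among the 28 other genes at least as abundant as Mir433, 25 passed, 11 higher and 14 lower in replicate 1. None of the anti-Rtl1 genes reached a 2-fold difference, whereas 7.09% of all genes tested both passed and did so. The median log2 ratio was 0.15 over the 5 anti-Rtl1 genes tested, beside 0.03 over all genes tested. It was 0.15 over 8 tested genes of the Meg3 side, 0.20 over 3 between Mir136 and Mir379 and 0.17 over 36 of the distal cluster. Over the 52 tested plus-strand genes of the region, members included, it was 0.16, with 31 called higher and 6 lower in replicate 1.

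**Figure D4:**
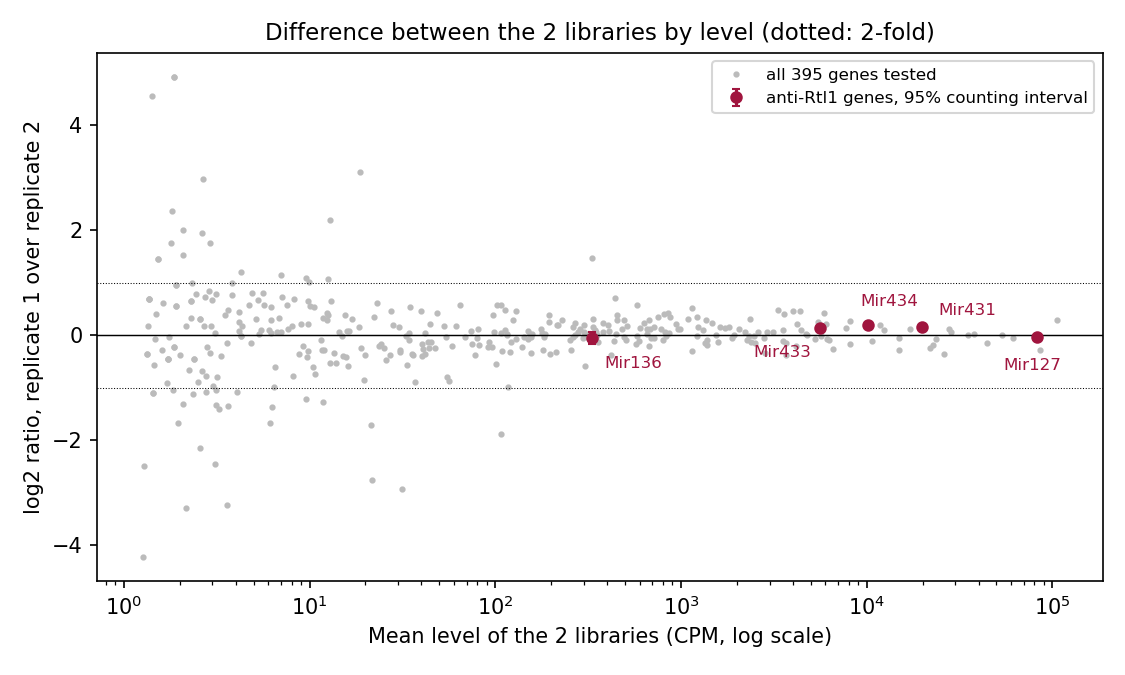
Log2 ratio of replicate 1 over replicate 2 against the mean level (CPM, log scale) of each of the 395 genes tested in grey, with the 5 anti-Rtl1 genes with reads in red and their 95% counting intervals. All 5 lie between the dotted lines of 2-fold difference, and the ratios run from -0.06 for Mir136 (0.09 with all reads of the file as the total) to 0.20 for Mir434.

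The division of reads among the anti-Rtl1 genes also differed between the libraries. The share of Mir127 within the 6 was 68.3% in replicate 1 (exact 95% interval 68.1% to 68.4%) and 71.0% in replicate 2 (70.9% to 71.2%). The shares of Mir431, Mir434 and Mir433 were all higher in replicate 1. A chi-square statistic over the 5 genes with reads came to 207.9 per degree of freedom, more than sampling noise gives. Across the 386 miRNA genes for which 5 or more reads were expected, it came to 90.8 per degree of freedom. An excess over sampling noise was therefore not particular to the anti-Rtl1 genes. The statistic rises with the number of reads, so these values do not rank the groups of genes. That the libraries come from separate animals rests on the labels' numbering and not on either value. The shares within the 6 genes do not depend on the library totals.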

How the data were processed

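For each miRNA gene the authors deposited 3 raw read counts, without strand, sense and antisense. Genome build mm10 and annotation GENCODE M21 were named by the authors in a text deposited beside the counts. The aligner and read filters, not given in the sources used here, could not be checked. Summary rows for unaligned, multiply aligned, unassigned and ambiguous reads stayed out of totals. The sense column was identified from its layout and totals. All 2202 identifiers matched GENCODE M21, and all 6 members matched RefSeq miRNA sequences (GRCm38.p6).

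Sense counts were scaled to 1000000 reads on miRNA genes. Levels are mean ± SD of 2 animals, which the labels describe as separate. Libraries were compared with an exact conditional binomial test (scipy 1.17.1) on genes with at least 10 reads in both libraries together, with Benjamini-Hochberg adjustment, an adjusted p threshold of 0.05 and, for a stricter call, 2-fold. Log2 ratios used a prior count of 0.5. With 1 library on each side, edgeR 4.0.16 (R 4.3.3) gave only the coefficient of variation and TMM totals. DESeq2 1.42.0 gave alternative size factors. Hairpins were folded with RNAfold 2.7.2. The test was tried on simulated data. The rule for the members uses gene symbols alone, but the members and lists were chosen with earlier results of these data known. Besides the members, named genes were those next above and below each in level, the highest of each neighbouring group and any miRNA gene opposite the members. Cell type markers were named from a separate list.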

Additional observations from a re-analysis of the deposited data

Results flagged for a closer look

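Reads on the strand opposite a member are not part of that member's own count. Opposite Mir136 they exceeded 3 counts, the limit set for a count of 0, in both libraries, with 31 in replicate 1 and 21 in replicate 2. These are the sense count of Mir3071, which is in the totals and among the 395 genes tested (exact adjusted p = 0.146). Opposite Mir434 they exceeded it in replicate 2 alone, with 2 reads in replicate 1 and 5 in replicate 2, beside 38246 and 37584 sense reads in these libraries.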

How the results depend on the processing

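The order of the members' levels was the same under every alternative run, except that without strand Mir136 tied with Mir432 at 0. Both libraries hold the same order, so other totals or leaving out an animal could not have changed it. Only the run without strand could have done so. The share of the 6 genes, 11.8% of counted reads, was 4.85% with all reads of the file as the total and 14.1% without strand. Leaving out one animal gave 11.71% to 11.98%. With all reads as the total, the log2 ratio of replicate 1 over replicate 2 turned to 0.12 for Mir127 and 0.091 for Mir136, and the median of all genes tested was 0.18, beside 0.03. Of 104 recomputed values, 89 kept their direction and call or moved by no more than the spread between animals. With 2 animals, the value of a single animal always lies within that spread of the mean. The runs that left out an animal could therefore only count as unchanged, and the 89 do not measure robustness. In every alternative that gave a test, 4 members passed it and 0 reached 2-fold, at either filter on low counts too. Over all genes, 28 passed at 2-fold, and 16 with at least 10 counts in each library. Without strand Mir136 had no reads and gave no ratio. Leaving out an animal left no library to test against. No paired analysis was possible because the design has a single group. Depth limits Mir432, Mir136 and Mir3071 most, and 2 animals limit every statement on spread.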
